A study of Mus musculus with 20 samples.

Results

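The growth hormone axis was followed through 10 genes in liver and kidney of mice dosed with JQ1: the receptor gene Ghr, its signal transducer Stat5b, the target genes Igf1, Igfals, Socs2 and Cish, and the major urinary protein genes Mup1, Mup3, Mup20 and Mup21. They were taken by symbol from 55642 genes, and the reads of all transcripts of a gene were summed in each of 20 libraries. They were selected on symbol with their log2 fold changes and levels in these libraries already known, so their log2 fold changes are given as a description, with a standard error and without a p-value. All animals were male mice of the inbred strain DBA/2J. JQ1, a small molecule that keeps BET proteins from binding acetylated histones, was injected intraperitoneally each day for 3 weeks at 50 mg/kg, and vehicle (DMSO in a cyclodextrin solution) was given on the same schedule. Treatment animals gave tissue at the end of dosing, when 10 weeks old. Recovery animals were left undosed for a further 6 weeks and were 16 weeks old. Each organ had 3 JQ1 treatment, 3 JQ1 recovery, 3 vehicle treatment and 1 vehicle recovery libraries of poly(A) RNA, and its 4 vehicle libraries served as control, so 3 of the 4 controls were younger than the recovery animals. The organs were included in the study to see whether a drug that acts on the testis alters other tissues and whether any change lasts.

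Growth hormone from the pituitary binds its receptor, GHR, on hepatocytes and activates the kinase JAK2, which phosphorylates the transcription factor STAT5B. STAT5B switches on Igf1, which encodes the circulating growth factor, Igfals, whose protein keeps that factor in blood in a larger complex, and the feedback inhibitors Socs2 and Cish. In male mice the pulsed release of the hormone, together with androgen, also drives the Mup genes. Their products are small carriers of pheromones that hepatocytes make in bulk and that leave the body with urine, and Mup20 encodes darcin, the male scent protein that attracts females.

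The libraries held 11968500 to 17529910 reads in liver and 13952510 to 26895318 in kidney. Levels within an organ are given as CPM, read counts brought to a common library size with TMM factors. Each library had reads of all 12 fixed markers of its own organ. JQ1 recovery replicates 2 and 3 of liver stood apart, because they also held kidney transcripts. The 12 kidney markers (Kap, Umod, Slc34a1 and others) summed to 6111 and 2933 CPM there, 27.2% and 13.0% of their mean in kidney, against 24.3 CPM in JQ1 recovery replicate 1 and 0.552 to 4.27 CPM in the other 7 liver libraries. Log2 fold changes, shares and calls in liver recovery are therefore given with and without these libraries.

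The Mup genes are near copies of each other, and the sequences decide how far their reads can be told apart. Shown are the first 90 coding bases of 4 members and of Mup2, which lie in exon 1 of each gene on the minus strand of chromosome 4 (GENCODE M21, GRCm38). Capitals mark bases that were not identical to Mup1 in a pairwise alignment.
Mup1 (chr4:60501760-60501849): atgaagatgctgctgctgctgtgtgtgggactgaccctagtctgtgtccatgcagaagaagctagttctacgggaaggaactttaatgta
Mup2 (chr4:60139697-60139786): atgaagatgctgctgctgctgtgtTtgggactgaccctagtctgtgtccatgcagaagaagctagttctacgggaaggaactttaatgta
Mup20 (chr4:62053960-62054049): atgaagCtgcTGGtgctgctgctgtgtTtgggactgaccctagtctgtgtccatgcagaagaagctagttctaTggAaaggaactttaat
Mup21 (chr4:62150663-62150752): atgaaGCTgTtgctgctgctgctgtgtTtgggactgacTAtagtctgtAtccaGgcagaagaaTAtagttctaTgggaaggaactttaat
Mup3 (chr4:62087142-62087231): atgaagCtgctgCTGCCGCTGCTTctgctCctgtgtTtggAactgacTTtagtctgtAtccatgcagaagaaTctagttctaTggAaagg
Mup2 differed from Mup1 at 1 base, Mup20 at 7, Mup21 at 12 and Mup3 at 22. Over the main transcript, 9.5% of the 75-base windows of Mup1, the length of a read, occurred in no other Mup gene. The share was 56.4% for Mup20, 89.7% for Mup21 and 92.6% for Mup3. Values of Mup3 and Mup21 therefore rest mainly on reads of their own, whereas those of Mup1 depend on how the quantifier divided shared reads.

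At the end of JQ1 treatment the liver held a smaller share of Mup reads. Summed over the whole family, pseudogenes included, Mup reads made up 7.60%, 9.77% and 11% of all reads in the 3 JQ1 treatment libraries. The vehicle treatment libraries had 15.2%, 12.1% and 15.4%, and the vehicle recovery library 15.8%. All treatment libraries lay below all controls, with means of 9.46% ± 1.73 (SD, n = 3) and 14.6% ± 1.71 (n = 4), a ratio of 0.648. With TMM scaling the groups touched, at 119187 CPM in JQ1 treatment replicate 3 and 118806 CPM in vehicle treatment replicate 2. In the edgeR fit with the family as a single gene the log2 fold change was -0.57 ± 0.24. The sum of the 12 liver markers (Alb, Apoa1, Ttr and others) went the other way, with 89689 to 102373 CPM after JQ1 and 77677 to 84368 CPM in controls before TMM scaling. Such CPM are shares, so a lower Mup share raises those of all other genes. Alb took much of the sum. With TMM scaling Alb had 50664 ± 3263 CPM after JQ1 and 41116 ± 3228 in controls. Apoc3 had 1334 ± 133 and 1408 ± 87.3 CPM, so not every marker was higher. Per liver marker read, Mup reads numbered 1.02 ± 0.248 after JQ1 and 1.83 ± 0.267 in controls. In bulk tissue, fewer cells of a type and less RNA per cell cannot be told apart.

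The lower share of the family was not spread evenly over its genes. Mup1 had 4714, 6126 and 6260 CPM after JQ1, and 14660, 11754 and 11585 CPM in vehicle treatment and 11582 CPM in vehicle recovery. The groups did not overlap, and the log2 fold change was -1.12 ± 0.23. Mup21 had 39.1, 55.8 and 76.6 CPM after JQ1, against 175, 144 and 153 CPM in vehicle treatment and 99.8 CPM in vehicle recovery. Its groups did not overlap either, with a log2 fold change of -1.32 ± 0.29. Mup3 had 5778, 6183 and 6368 CPM after JQ1 and 6872, 6351, 6128 and 5892 CPM in control. Its groups overlapped almost fully, and the log2 fold change was -0.05 ± 0.21. Mup20 had 872, 1037 and 1775 CPM after JQ1 and 1072, 1294, 911 and 1123 CPM in control, a log2 fold change of 0.16 ± 0.25, with treatment replicate 3 above every control and treatment replicate 1 below every control. As shares of the family's reads, Mup1 made up 5.67% ± 0.385 after JQ1 and 8.37% ± 1.37 in controls, and Mup3 6.17% ± 1.06 and 4.28% ± 0.757.

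**Figure D1:**
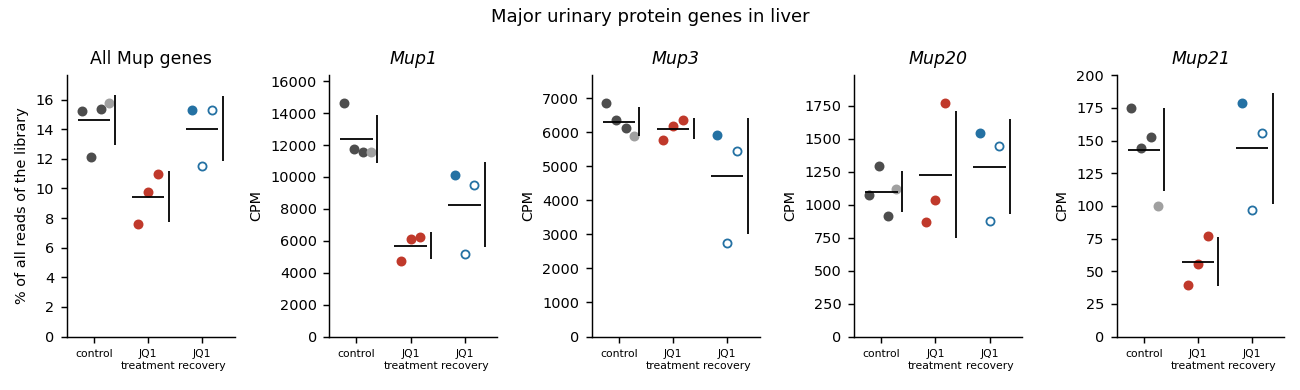
Share of all Mup reads in each liver library (left, percent of reads) and CPM of the 4 member Mup genes, by group. Points are libraries (dark grey vehicle treatment, light grey vehicle recovery, red JQ1 treatment, blue JQ1 recovery), horizontal lines are means, vertical lines are SD, and open circles are the 2 recovery libraries with kidney transcripts. The treatment points lie below every control for the family, Mup1 and Mup21. For Mup3 they lie among the controls except replicate 1, which is just below the lowest control (5778 against 5892 CPM).

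Of the 10 members, 1 (Mup1) was called by edgeR at an adjusted p below 0.05, where 0.495% of the 14559 genes tested in liver were called, 0.227% as lower. Groups did not overlap for 2 members, both lower, where 12.9% of all genes did not overlap. The median log2 fold change was -0.12 over members and 0.00 over all genes. These counts describe the chosen genes and carry no test. The call of Mup1 was lost when any of the 7 libraries compared was left out, with log2 fold changes between -1.19 and -1.0.

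The other Mup genes, which were no members but were listed with earlier results of these data known, mostly had lower values as well. None passed the test. Many of them share reads with each other or with Mup1, so the counts below are not of independent genes. Of 14 measured, 0 rose and 0 fell (edgeR, adjusted p below 0.05), 8 had an unadjusted p below 0.05, and their median log2 fold change was -0.57. DESeq2 called 3 of the 14 (Mup11 and Mup16 lower, Mup18 higher) and limma voom 0. Over all 14559 genes, 1387 had an unadjusted p below 0.05, DESeq2 called 284 and limma voom 33. For 5 of the 14 the treatment libraries lay below all controls, against 6.13% of all genes. Mup11 came nearest to the threshold, at 835 ± 165 CPM after JQ1 (n = 3) and 1409 ± 259.6 CPM in controls (n = 4), a log2 fold change of -0.75 ± 0.17 (edgeR adjusted p = 0.0781). Mup14 had 20884 ± 2876 and 33565 ± 2803 CPM, with a log2 fold change of -0.68 ± 0.25 (edgeR adjusted p = 0.377). The 2 genes with most reads beside it, Mup9 and Mup2, had log2 fold changes of -0.57 ± 0.24 and -0.31 ± 0.20. Mup7, Mup10, Mup17 and Mup19 lay between -0.58 and -0.46. The 2 largest differences belonged to genes with lower levels. Mup22 had 1.01 ± 1.76 CPM after JQ1, with no reads in 2 of 3 libraries, and 23.5 ± 9.15 CPM in control (edgeR adjusted p = 0.160). Mup16 had 15.0 ± 8.05 and 60.3 ± 27.2 CPM (-2.02 ± 0.54, edgeR adjusted p = 0.247). The recovery libraries with kidney transcripts enter this fit through the shared estimate of spread. Without them the log2 fold change was -0.70 ± 0.10 for Mup14 and -1.05 ± 0.18 for Mup8. With the compared groups alone both were called as lower (edgeR adjusted p = 0.000540 and 0.00745), in a fit that called 368 of 13860 genes. With all libraries neither was called by edgeR, DESeq2 or limma voom. Among the 12 Mup genes with at least 100 CPM in liver, 11 had a value below 0 and Mup20 was the exception. Mup2, Mup19 and Mup22 had no 75-base window of their own, so their separate values are uncertain. Of the windows of Mup22, 92.6% also occurred in Mup10.

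**Figure D2:**
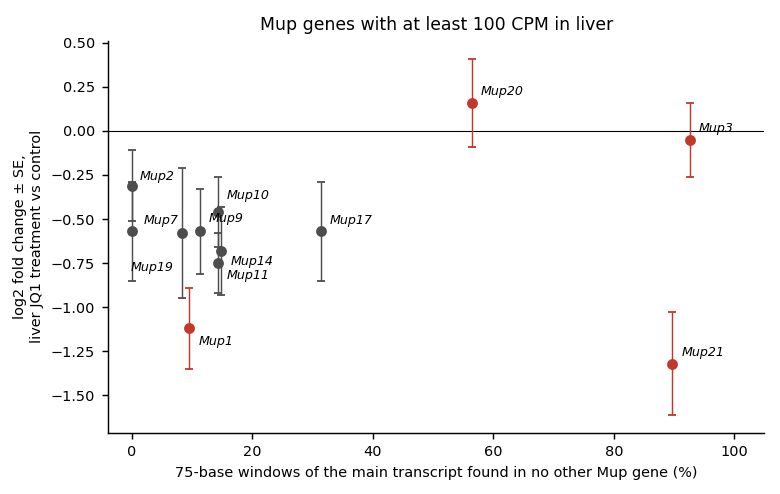
Log2 fold change (± SE) in liver JQ1 treatment against control for the 12 Mup genes with at least 100 CPM, against the percentage of 75-base windows of the main transcript that no other Mup gene holds. Red points are the chosen genes and grey points the other Mup genes. Mup3 (-0.05) and Mup21 (-1.32) lie far apart although 92.6% and 89.7% of their windows are their own.

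Mup3 and Mup21 had different values after JQ1 with alike promoters in the reference genome. Their RefSeq promoters (GRCm38.p6) were 93.9% identical over 294 aligned bases. The 250 bases before each start are shown to let the 2 genes be compared, with capitals at bases that differed, or had no partner, inside the stretch where the windows aligned.
Mup3 (chr4:62087318-62087567, minus strand): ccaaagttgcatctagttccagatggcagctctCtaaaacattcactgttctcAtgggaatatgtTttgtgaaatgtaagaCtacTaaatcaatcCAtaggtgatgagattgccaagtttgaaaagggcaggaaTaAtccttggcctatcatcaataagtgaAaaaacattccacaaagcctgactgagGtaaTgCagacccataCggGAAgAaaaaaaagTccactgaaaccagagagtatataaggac
Mup21 (chr4:62150842-62151091, minus strand): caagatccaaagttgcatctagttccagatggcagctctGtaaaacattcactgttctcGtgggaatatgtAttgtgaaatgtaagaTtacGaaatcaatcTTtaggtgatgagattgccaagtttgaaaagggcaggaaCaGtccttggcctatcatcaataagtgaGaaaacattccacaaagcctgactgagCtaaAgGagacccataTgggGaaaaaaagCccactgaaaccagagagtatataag
In capitals stand 19 bases of Mup3 and 16 of Mup21. The letters TTCNNNGAA, the core to which STAT5 binds, were searched in 32851 RefSeq promoters from 250 bases before to 50 after the start, and 8.3% held a match. The motif reads the same on both strands. None of the 14 Mup genes with a promoter in the table had a match in this window. Of the 7 members with a promoter, Cish and Igfals had a match, and 30 bases around each match are shown with the matches in capitals. The 7 members had 11 promoters, and the 8.3% counts promoters and not genes, so these shares are not to be compared.
Cish (chr9:107296654-107296683, plus strand): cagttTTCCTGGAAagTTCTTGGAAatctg
Igfals (chr17:24877598-24877627, plus strand): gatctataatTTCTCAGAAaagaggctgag
Igfals, another start (chr17:24878163-24878192, plus strand): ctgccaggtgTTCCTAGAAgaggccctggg
The first match of Cish began at the start itself and the second 11 bases after it. Those of Igfals began 236 and 58 bases before 2 different starts.

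Receptor and transducer differed little from control in treated liver. Ghr had 208, 228 and 230.1 CPM after JQ1 and 269, 224, 275 and 252 CPM in control, a log2 fold change of -0.20 ± 0.10. Only the vehicle treatment library with 224 CPM lay within the range of the treated ones. Stat5b had 19.2, 21.9 and 20.1 CPM after JQ1 and 28.1, 21.3, 24.0 and 22.2 CPM in control (-0.23 ± 0.17), and the groups overlapped.

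The STAT5B target genes differed from control in no common direction. Igf1 had 963, 950.0 and 759 CPM after JQ1 and 727, 773, 778 and 688 CPM in control, a log2 fold change of 0.26 ± 0.19. Treatment replicates 1 and 2 were above all controls and replicate 3 was among them. Igfals had 49.4, 52.0 and 48.7 CPM after JQ1 and 45.4, 43.2, 57.0 and 61.1 CPM in control (-0.05 ± 0.17), so all treated libraries lay inside the control range.

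The feedback inhibitors varied more between animals than between groups. Socs2 had 35.5, 39.3 and 18.2 CPM after JQ1, and 33.4, 30.3, 19.0 and 30.3 CPM in control (0.14 ± 0.33). Cish had 16.7, 20.9 and 3.24 CPM after JQ1, and 32.1, 18.6, 9.85 and 7.13 CPM in control (-0.30 ± 0.75). For both genes treatment replicate 3 was the lowest of all treated and control libraries. Across the 10 liver libraries log2 CPM of Cish and Socs2 had a Pearson r of 0.643 and a Spearman rho of 0.818. Without the 2 libraries farthest from the median of Cish, r was 0.569, after removal of group means it was 0.636, and without the 2 libraries with kidney transcripts it was 0.781. In kidney, r was 0.567 and rho 0.43, with r at 0.816 without the 2 farthest libraries and 0.604 after removal of group means. These coefficients describe 2 chosen genes in libraries that share depth and scaling.

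**Figure D3:**
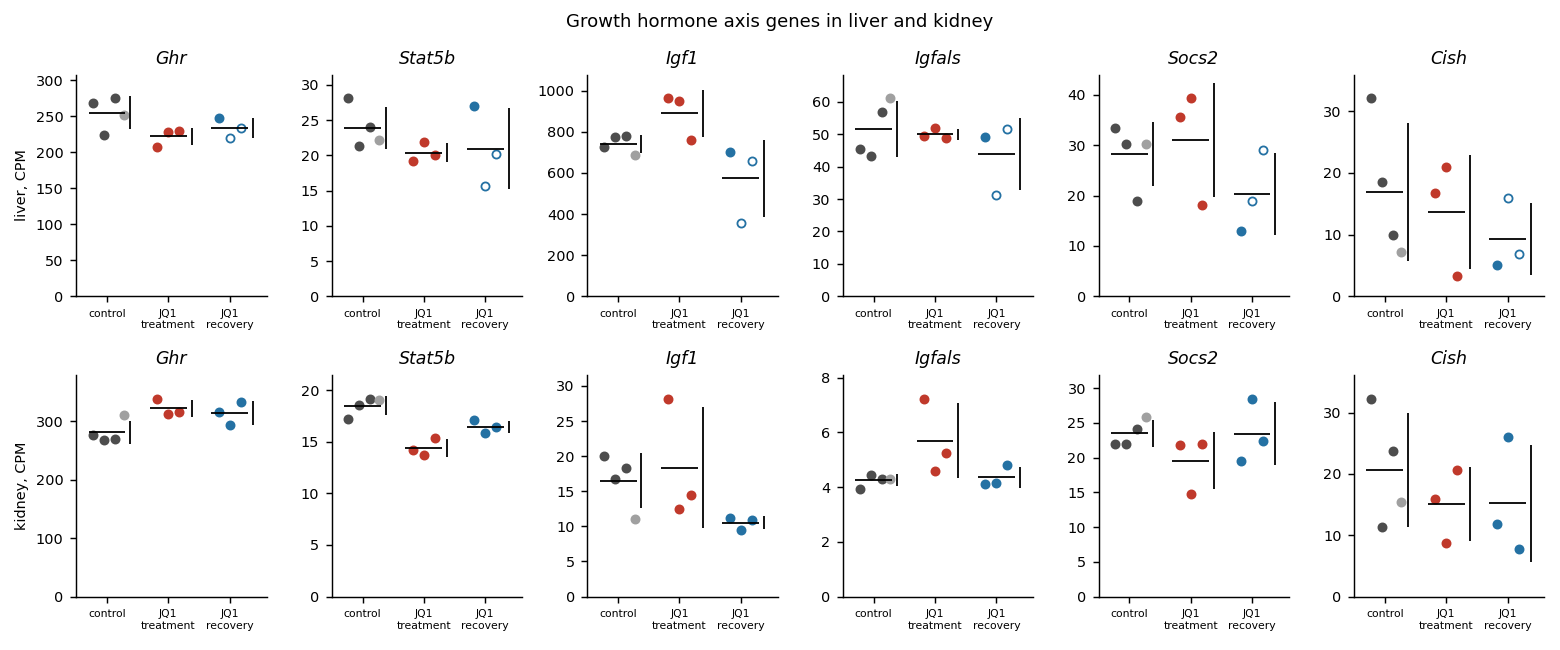
CPM of Ghr, Stat5b, Igf1, Igfals, Socs2 and Cish in each liver library (top) and kidney library (bottom), by group, with axes from 0. Points are libraries (dark grey vehicle treatment, light grey vehicle recovery, red JQ1 treatment, blue JQ1 recovery), horizontal lines are means, vertical lines are SD, and open circles are the 2 liver recovery libraries with kidney transcripts. Cish spread from 3.24 to 32.1 CPM in liver, whereas Ghr stayed between 208 and 275 CPM.

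In liver 6 weeks after the last dose, the Mup share was close to that of the controls. It was 15.3%, 11.5% and 15.3%, with replicate 2 below the lowest control of 12.1%, and had a mean of 14.1% ± 2.20 (n = 3), a ratio of 0.962 to control and of 1.05 in JQ1 recovery replicate 1 alone. Relative to liver marker reads, which were 39494 CPM in replicate 2 against 70287 CPM in replicate 1, the ratio to control was 1.36, and 1.19 in replicate 1 alone. Mup21 had 179, 96.7 and 156 CPM, a log2 fold change of 0.01 ± 0.28 against control (0.33 with replicate 1 alone), and all 3 libraries lay above the 3 treated ones. Mup1 had 10122, 5185 and 9508 CPM, below every control, with a log2 fold change of -0.58 ± 0.22. With replicate 1 as the only recovery library that value was -0.30. Mup3 had 5915, 2759 and 5463 CPM (-0.42 ± 0.22, and -0.10 with replicate 1 alone). Mup20 had 1546, 878 and 1442 CPM (0.23 ± 0.25, and 0.49 with replicate 1 alone).

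The axis genes in liver recovery followed the libraries more than the group. Igf1 had 704, 357 and 659 CPM, and its log2 fold change against control went from -0.37 ± 0.19 to -0.08 with replicate 1 alone. Igfals had 49.0, 31.3 and 51.7 CPM (-0.23 ± 0.17, and -0.08 alone). In kidney these genes were lower by far, with medians of 13.0 CPM for Igf1 and 4.45 CPM for Igfals against 704 and 47.8 CPM in liver before TMM scaling, and replicate 2, with most kidney transcripts, had the lowest value of both. Ghr had 248, 220.1 and 234 CPM (-0.12 ± 0.10, and -0.04 with replicate 1 alone). Stat5b had 27, 15.6 and 20.2 CPM (-0.19 ± 0.17, and 0.17 alone), so its value changed sign. The feedback inhibitors went the other way and lay further from control in replicate 1 alone. Socs2 had 13.0, 18.9 and 29.1 CPM (-0.47 ± 0.34, and -1.12 alone). Cish had 5.10, 15.9 and 6.83 CPM (-0.86 ± 0.77, and -1.72 alone). The part that kidney transcripts had in these values was not tested beyond leaving the libraries out. In this comparison 0 of 10 members were called, against 0.0343% of genes, and 1 (Mup1) did not overlap, against 11.6% of genes. With replicate 1 alone 0 were called, against 0.00643% of genes. That single library lay below the control range for Mup1, Socs2 and Cish, above it for Mup20 and Mup21 and inside it for the other 5 members.

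Set against each other, treatment and recovery livers did not overlap in Mup21, which differed by a log2 fold change of -1.34 ± 0.31 (treatment minus recovery), and in Igf1, which differed by 0.64 ± 0.20. With recovery replicate 1 alone these were -1.66 and 0.33. Mup1 differed by -0.54 ± 0.24, and by -0.83 with replicate 1 alone. The order of the members rested on the libraries used, since with replicate 1 alone Cish (1.42), Socs2 (1.25) and Mup1 all differed more than Igf1. In that fit 1 member (Mup1) was called, against 0.887% of genes, but the lone recovery library is assumed to vary like those of the other groups. No member was called with all libraries, against 2.29% of genes, and 2 of 10 did not overlap, against 21.2% of genes. Treatment and recovery share their controls, so both comparisons with control rest on the same 4 libraries.

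**Figure D4:**
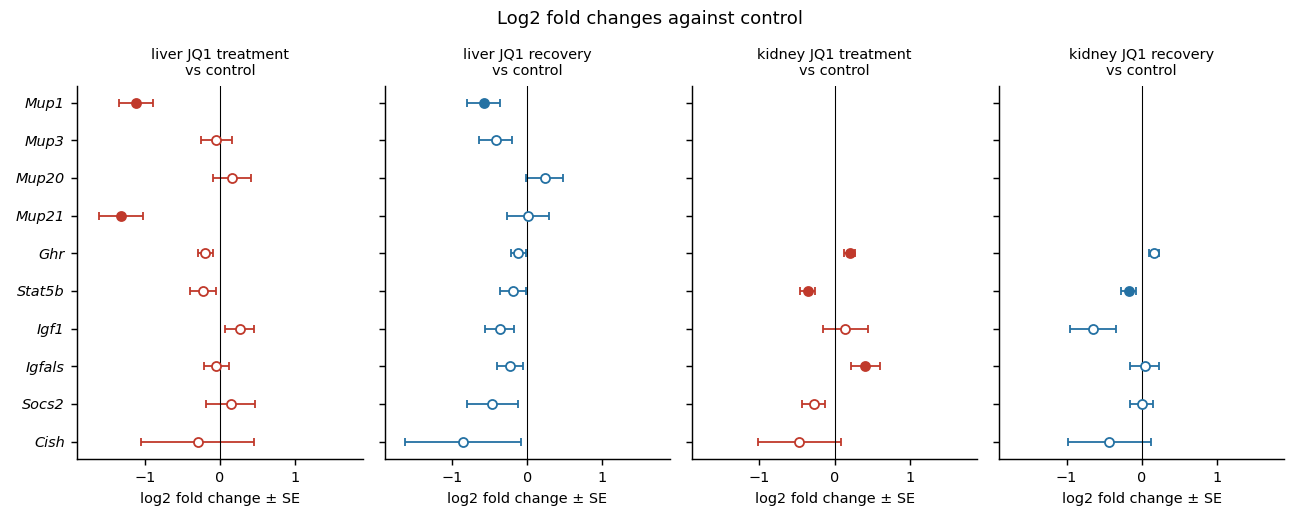
Log2 fold changes (± SE, edgeR) of the members against control in liver and kidney at treatment (red) and recovery (blue). Filled points are genes whose libraries did not overlap with control, and the Mup genes are left out for kidney, where reads were few. In liver the filled points are Mup1 and Mup21 at treatment and Mup1 at recovery, and in kidney Ghr, Stat5b and Igfals at treatment and Stat5b at recovery.

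Kidney held the receptor and the feedback inhibitors at levels close to those of liver, but little Igf1, Igfals or Mup RNA. Before TMM scaling Ghr ran from 270.2 to 327 CPM in kidney and from 202 to 273 CPM in liver. Per kilobase of transcript, medians in kidney were 184 CPM for Ghr, 11.5 for Socs2, 6.01 for Cish, 3.48 for Stat5b, 2.89 for Igf1 and 2.46 for Igfals. The ranges of Stat5b, Igf1 and Igfals overlapped each other, and that of Cish overlapped with all of them and with Socs2. In liver the medians per kilobase were 341 for Igf1, 168 for Ghr, 26.3 for Igfals, 15.9 for Socs2, 5.08 for Cish and 4.44 for Stat5b, and there Igf1 overlapped with Ghr and Cish with Stat5b and Socs2, but Igfals lay between Ghr and Socs2 without overlap. These ranges include the 2 liver libraries with kidney transcripts, of which JQ1 recovery replicate 2 had the lowest Igf1 level (357 CPM with TMM scaling). The Mup genes had medians of 15951 for Mup1, 8593 for Mup3 and 1624 for Mup20, above every axis gene, and 311 for Mup21, within the range of Igf1.

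At the end of treatment Ghr was higher and Stat5b lower in kidney than in control. Ghr had 339, 312 and 316 CPM after JQ1, and 276, 268 and 269 CPM in vehicle treatment and 311 CPM in vehicle recovery. The groups did not overlap, though by 1 CPM between a treated and a control library, and the log2 fold change was 0.20 ± 0.07. Stat5b had 14.2, 13.7 and 15.4 CPM after JQ1, and 17.2, 18.6, 19.2 and 19.1 CPM in control, without overlap (-0.36 ± 0.10). At recovery it had 17.1, 15.9 and 16.4 CPM, still below every control and above every treated library (-0.17 ± 0.10 against control). Ghr at recovery had 316, 293 and 333 CPM (0.16 ± 0.07), of which replicate 2 lay among the controls. These values lay around the single control of that age (311 CPM) and above the 3 controls of the treatment age. Age and drug cannot be told apart in this value of Ghr either.

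Igf1 of kidney had 28.2, 12.4 and 14.4 CPM after JQ1 and 20.0, 16.8, 18.3 and 11 CPM in control (0.14 ± 0.30). At recovery it had 11.2, 9.45 and 10.9 CPM (-0.65 ± 0.31), near the single control of that age (11 CPM) and below the 3 controls of the treatment age. Age and drug cannot be told apart in that difference of Igf1, since 1 control library was of the recovery age. Igfals had 7.23, 4.60 and 5.24 CPM after JQ1 and 3.93, 4.44, 4.31 and 4.31 CPM in control (0.41 ± 0.19), without overlap but from 57.0 to 123 reads a library. Socs2 had 21.8, 14.8 and 22.0 CPM after JQ1 and 22.0, 21.9, 24.1 and 25.9 CPM in control (-0.28 ± 0.15). Cish had 15.9, 8.67 and 20.6 CPM after JQ1 and 32.3, 11.3, 23.8 and 15.4 CPM in control (-0.47 ± 0.55), and both overlapped with control at recovery (Socs2 -0.00 ± 0.15, Cish -0.43 ± 0.55).

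Of the 8 members that passed the read filter in kidney, 1 (Stat5b) was called at treatment, against 4.13% of the 17158 genes tested, 2.73% as lower. The 8 include Mup1 and Mup3, whose kidney reads were traces, with 0 to 172 and 2 to 89 reads a library. Groups did not overlap for 3 of the 8 (Ghr, Igfals and Stat5b), against 15.1% of genes. The call of Stat5b was lost in all 7 fits that left out a library, with log2 fold changes of -0.41 to -0.33. At recovery 0 of 8 were called, against 0.00583% of genes, and 1 did not overlap, against 10.5%. Between treatment and recovery 0 of 8 were called, against 7.31%, and 2 did not overlap (Igf1 and Stat5b), against 27.2%.

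Mup reads in kidney were traces, and the libraries with most of them also had most reads of Alb, the albumin gene of hepatocytes. The family summed to 3.05 to 56.8 CPM after JQ1, 33.8 to 98.3 CPM at recovery, 7.13 to 10.4 CPM in vehicle treatment and 141 CPM in vehicle recovery. Alb ran from 3.97 to 28.4 CPM, and the 3 libraries with most Alb, vehicle recovery 1 (28.4 CPM), JQ1 treatment 3 (27.1 CPM) and JQ1 recovery 1 (15.6 CPM), were also the 3 with most Mup reads. Reads of Mup per liver marker read ran from 0.176 to 2.18 in kidney and from 0.743 to 2.92 in liver. Mup21 had no read in 8 of 10 kidney libraries, which allows up to 0.112 CPM in the deepest and 0.215 CPM in the shallowest by counting error alone. The direction of the family's difference from control turned with 1 library, from a log2 fold change of -0.71 ± 1.38 to 1.53 ± 1.08 without vehicle recovery 1. Whether these reads came from kidney cells was not tested, and no change of Mup genes in kidney is drawn from them.

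**Figure D5:**
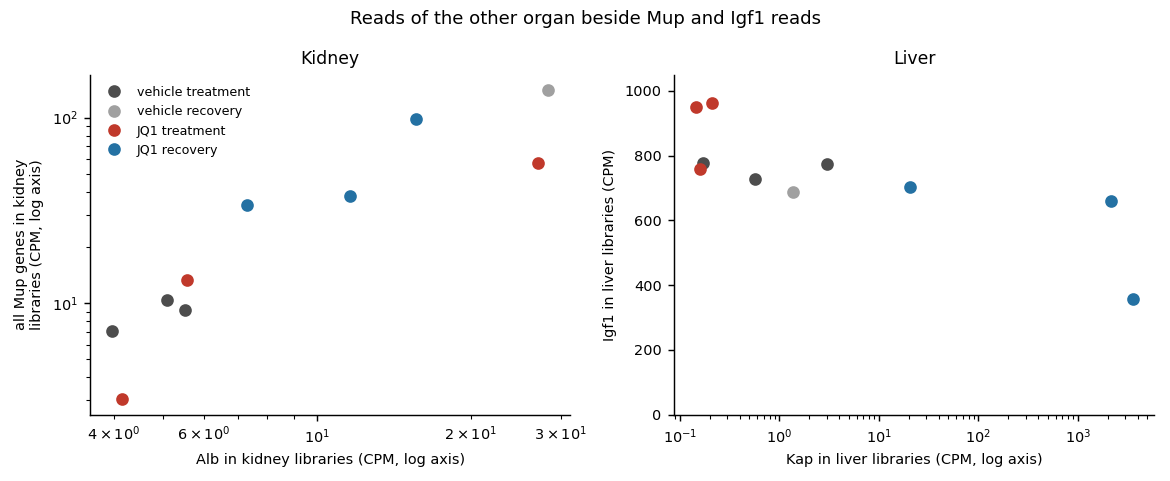
Left, CPM of all Mup genes against CPM of Alb in the 10 kidney libraries, both on log axes. Right, CPM of Igf1 against CPM of the kidney gene Kap (log axis) in the 10 liver libraries. Colours are dark grey for vehicle treatment, light grey for vehicle recovery, red for JQ1 treatment and blue for JQ1 recovery. Kidney libraries with more Alb had more Mup reads, and the lowest Igf1 value in liver (357 CPM) was in the library with most Kap (3541 CPM).

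The effect of treatment was compared between organs in 1 fit over all 20 libraries. Ghr differed by a log2 value of -0.41 ± 0.12 (liver minus kidney), Igfals by -0.45 ± 0.24, Socs2 by 0.41 ± 0.40, Stat5b by 0.12 ± 0.20 and Igf1 by 0.11 ± 0.38. None of the 8 members tested was called, against 0.169% of 17710 genes. Mup1 and Mup3 are among the 8, with only traces in kidney.

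Other genes of the pathway were taken from fixed lists. Of the GH receptor signalling genes other than the members, 0 of 13 in liver and 0 of 14 in kidney passed the edgeR test at treatment. At an unadjusted p below 0.05 there were 2 and 3, against 1387 of 14559 and 2926 of 17158 genes in all. In this list DESeq2 called none in liver and Prlr, the prolactin receptor, as lower in kidney, against 284 and 1042 genes in all. Limma voom called 0 of the list in both. The largest differences in liver were those of Irs2, an adaptor of insulin and IGF receptors (0.69 ± 0.22, edgeR adjusted p = 0.263), and Stat5a, the sister gene of Stat5b (-0.49 ± 0.23, edgeR adjusted p = 0.521). Of the IGF system, 0 of 10 passed in liver by edgeR, DESeq2 or limma voom, with 1 at an unadjusted p below 0.05. In kidney 2 of 15 did, with Igf2r, the receptor that clears IGF2, risen from 114 ± 9.32 to 156 ± 27.4 CPM (0.44 ± 0.10, edgeR adjusted p = 0.0130) and Igfbp5, an IGF binding protein, fallen from 366 ± 19.9 to 298 ± 32.1 CPM (-0.30 ± 0.08, edgeR adjusted p = 0.0399). The call of Igf2r was lost without JQ1 treatment replicate 1 (adjusted p = 0.0516) and that of Igfbp5 in 5 of 7 fits that left out a library.

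Of the liver factors that work with growth hormone, 0 of 14 passed in liver by edgeR, with 1 at an unadjusted p below 0.05. DESeq2 called Cebpb, a liver transcription factor, and limma voom 0. Cebpb had 16.4 ± 2.47 CPM after JQ1 and 24.0 ± 2.80 CPM in control. Without the 2 recovery libraries with kidney transcripts its log2 fold change was -0.56 ± 0.14. With the compared groups alone Cebpb was called as lower (edgeR adjusted p = 0.0311), in a fit that called 368 of 13860 genes. In kidney 1 of 10 did: Esr1, the oestrogen receptor, fell from 22.3 ± 4.16 to 11.7 ± 2.25 CPM (-0.94 ± 0.15, edgeR adjusted p = 0.000962) and was 22.5 ± 1.06 CPM at recovery. Its call held in all 7 fits that left out a library.

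Genes that growth hormone makes male-biased or female-biased in liver mostly stayed under the threshold there. Of 15 male-biased genes 1 rose and 0 fell, with a median log2 fold change of -0.07 beside 0.00 for all genes. Cspg5 went from 9.82 ± 1.27 to 18.6 ± 3.01 CPM (0.92 ± 0.16, edgeR adjusted p = 0.0210). Of 9 female-biased genes 1 rose and 0 fell, with a median of 0.04. Cyp3a44, a female-specific cytochrome P450 with near-identical neighbours, went from 0.311 ± 0.209 to 4.72 ± 3.91 CPM (3.89 ± 0.70, edgeR adjusted p = 0.0330), at 1.45 to 9.05 CPM in the treated libraries. Both calls were lost in most fits that left out one of the 7 libraries compared, in 7 of 7 for Cspg5 and 6 of 7 for Cyp3a44.

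Without the 2 recovery libraries with kidney transcripts, 5 male-biased genes passed in treated liver, 3 higher and 2 lower, in a fit that called 2.3% of all genes against 0.495% with all libraries. Hsd3b5, a male-specific steroid reductase, fell from 68.7 ± 13.2 to 33.8 ± 7.44 CPM (-1.03 ± 0.19, edgeR adjusted p = 0.0290). Cyp2u1, a fatty acid hydroxylase, fell from 64.2 ± 6.82 to 36.0 ± 6.09 CPM (-0.85 ± 0.12, edgeR adjusted p = 0.000279). Serpina1e, which encodes an alpha-1 antitrypsin and has close copies, rose from 16.3 ± 1.29 to 33.7 ± 10.0 CPM (1.04 ± 0.17, edgeR adjusted p = 0.00466). Cspg5 (0.91) kept its call, and Moxd1 was called at a mean of 1.36 CPM. The male-biased genes that passed went in both directions.

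In kidney 4.13% of all genes were called at treatment, against 0.495% in liver, and the number of calls in a list is to be read beside that. Whether the lists differed between the organs was not tested. Of 12 male-biased genes 1 rose and 2 fell, with a median of -0.76. The 2 that fell were Cyp7b1, a steroid hydroxylase (78.7 ± 22.4 to 30 ± 6.60 CPM, -1.38 ± 0.24, edgeR adjusted p = 0.0195), and Cyp4a12a, a fatty acid hydroxylase (356 ± 79.3 to 214 ± 16.9 CPM, -0.74 ± 0.15, edgeR adjusted p = 0.0208). Gstp1 rose (0.30 ± 0.08, edgeR adjusted p = 0.0374). Of 8 female-biased genes 0 rose and 2 fell. Cyp2a4, a steroid hydroxylase with a close copy in Cyp2a5, fell from 293 ± 41.5 to 47.7 ± 21.8 CPM (-2.60 ± 0.30, edgeR adjusted p = 0.00344), and Slc22a26, an organic anion transporter, from 11.2 ± 2.64 to 4.34 ± 1.11 CPM (-1.35 ± 0.20, edgeR adjusted p = 0.000673). The calls of Cyp2a4 and Slc22a26 held in all 7 fits that left out a library, and that of Gstp1 in 2. Cyp7b1 lost its call without JQ1 treatment replicate 1 (adjusted p = 0.0889) or 3 (0.0858), and Cyp4a12a without replicate 1 (0.11) or 2 (0.077). The lists name the bias in liver, and the bias of these genes in kidney may be another.

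At recovery 0 genes of these 5 lists passed against control in either organ (edgeR, adjusted p below 0.05), of 61 tested in liver and 59 in kidney. At an unadjusted p below 0.05 there were 14 in liver and 10 in kidney, against 2430 of 14559 and 1571 of 17158 genes in all. DESeq2 called 4 and 1, against 662 and 103 genes in all, and limma voom 0 and 0. Liver recovery replicate 1 alone is a single library, and no count of list genes is given for it. Female-biased Cyp2a4 and Slc22a26, both expressed in kidney, stood at up to 33.1 and 2.77 CPM in the recovery livers and at most at 3.55 and 0.796 CPM in control livers, beside the kidney transcripts described above.

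Among the genes whose log2 CPM ran most closely with Igf1 over the 10 liver libraries were Serpina1e (r = 0.975), Vmn2r117 (0.974), Serpina3c (0.972) and Alb (0.971). Among members r with Igf1 was 0.873 for Mup3 and 0.710 for Igfals. Without JQ1 recovery replicates 2 and 3 none of these 4 genes was among the closest 5, and r with Mup3 was -0.244, so the likeness rested on those libraries. Socs2 ran most closely with Gtf3c2 (0.899), Copb2 (0.896), Ctdnep1, Ift52 and Acot4, of which Copb2 (0.905) stayed among the closest 5 without these libraries. Mup20 ran most closely with Tnfaip2 (0.861), Rwdd3 (0.851), Vcl, Ubqln1 and Psmd7, of which Rwdd3 (0.902) stayed. The libraries share depth, scaling and the kidney transcripts, and with 10 libraries many of 14559 genes reach such values.

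The receptor was read from the same transcripts in both organs. Ghr-201, of 4175 bases, took 48.4% ± 0.367 of Ghr reads in control liver and 56.8% ± 2.13 in control kidney, and Ghr-203, of 1171 bases, 40.2% ± 1.65 and 36.0% ± 2.13. After JQ1 the shares of Ghr-201 were 50.8% ± 1.03 in liver, above every control library, and 58.9% ± 2.29 in kidney. In recovery livers, of which 2 held kidney transcripts, the share was 52.9% ± 3.50 and also above every control library. Igf1 was read mainly from Igf1-202, of 7052 bases, which took 59.1% ± 2.72 in control liver and 90.8% ± 5.85 in control kidney, while Igf1-203 took 30.7% ± 1.43 and 5.99% ± 4.13. JQ1 treatment left these shares at 55.6% ± 3.59 and 33.8% ± 2.42 in liver, within or next to the control range. Single transcripts carried most reads of Stat5b, Socs2, Cish and Igfals in both organs. The lowest shares in a control liver library were 69.6% for Stat5b-201 and 80.1% for Socs2-214. Igfals-204, the main transcript of Igfals, is annotated as a processed transcript and not as protein coding. Transcript shares come from the quantifier's model and were not tested.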

How the data were processed

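Poly(A) RNA of kidney and liver was sequenced as single-end reads of 75 bases. The authors trimmed with fastp 0.20.1 and ran Salmon 1.10.0 on the GENCODE mouse transcriptome, as their methods and processing notes state. The deposited files hold an estimated count of reads, an effective length and a TPM value for each of 147833 transcripts. Salmon shares reads between matching transcripts, so values of near-identical genes are uncertain. TPM of Mup genes is dominated by short transcripts, and TPM entered only through length-scaled counts as an alternative.

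Estimated counts were summed by gene and rounded. Each organ was fitted over its 10 libraries in 3 groups with edgeR 4.0.16 in R 4.3.3 (TMM, quasi-likelihood F-test, filterByExpr with min.count = 10 and min.total.count = 15). The p-values were adjusted by the Benjamini-Hochberg method over all genes tested, 14559 in liver and 17158 in kidney, with a threshold of 0.05. The difference between organs was fitted over 20 libraries. CPM is mean ± SD with TMM factors unless said otherwise, and log2 fold changes are ± SE. The labels do not state that each library is a separate animal, nor whether kidney and liver of one number share one, so p-values measure the spread between libraries, which may be technical. Limits for a count of 0 cover counting error only. The fit was tested on simulated data.

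Groups followed the labels. The text of a study legend swaps the counts of vehicle mice between the times and states a recovery of 3 weeks. Members, lists and tests were chosen with earlier results of these data known. Genes were named by a rule: all members, Mup genes with a mean of at least 100 CPM in liver, list genes called against control in either organ or otherwise the 2 largest differences in treated liver, and the 5 genes most like Igf1, Socs2 and Mup20 by Pearson r of log2 CPM (prior count 2) among genes with at least 10 CPM. Prlr, Mup8, Mup18, Cebpb, Hsd3b5, Cyp2u1, Serpina1e, Moxd1, and Cyp2a4 and Slc22a26 in liver, were singled out after their values were seen. Results of some genes that the rule names are not reported here. Alternatives were length-scaled TPM counts, DESeq2 1.42.0, limma voom 3.58.1, RLE factors, library totals, no filter, scaling without Mup reads, the compared groups alone, vehicle of the same time, a replicate block and leaving out each library. Leaving out liver JQ1 recovery replicates 2 and 3 together, and scaling Mup reads to liver marker reads, were chosen after seeing the data. Mup windows and coding bases came from GENCODE M21, in which all 123 transcripts of members and Mup genes had the same length as in the files, and promoters from RefSeq (GRCm38.p6).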

Additional observations from a re-analysis of the deposited data

Results flagged for a closer look

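In 4 of 20 sets of control libraries a single library stood apart by Dixon's test, which chance gives in about 1 of 20 sets. In liver, vehicle treatment replicate 1 had the highest Mup1 level of the controls, 14660 CPM against 11582 to 11754 CPM. Vehicle treatment replicate 2 had the lowest sum of all Mup genes in liver controls, 118806 CPM with TMM scaling. In kidney, vehicle recovery replicate 1 had 4.67 CPM of Mup3, against 0.125 to 0.318 CPM in vehicle treatment, and 138 CPM of all Mup genes with TMM scaling. That kidney library also had the most Alb, 28.4 CPM.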

How the results depend on the processing

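The ratio of Mup reads to control was 0.648 in treated liver, with 0.594 to 0.711 when 1 library was left out. At recovery it was 0.962, with 0.909 to 1.05 when 1 library was left out and 1.36 relative to liver marker reads. Of 1087 alternative log2 fold changes of members, 992 stayed within 1 SE or kept their call, 69 moved further, 26 lost a call and 0 called values changed sign. The 2 called values, Mup1 in treated liver and Stat5b in treated kidney, had 35 alternatives, of which 9 kept the call. The causes of the changes were not tested.

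Members called in treated liver numbered 1, and 2 by DESeq2 and with library totals, where 72, 284 and 104 of all 14559 genes were called. The number was 0 with length-scaled TPM counts, limma voom, no filter, Mup reads left out of the scaling, vehicle of the same time and the replicate block, and 0 to 0 with 1 library left out. Genes called in all numbered 37, 33, 128, 59, 34 and 41 in that order, and 15 to 35 with 1 library left out. At liver recovery 0 members were called, and 0 to 1 with 1 library left out (1 without JQ1 recovery replicate 1). In all, 5 of 14559 genes were called, and 2107 of 15450 without that replicate. Between treated and recovered liver 0 were called, 2 by DESeq2, 2 with library totals, and 0 to 1 with 1 library left out (1 without recovery replicate 1 or 2). Genes called in all numbered 334, 1158 and 542 in that order. They numbered 2154 of 15450 without recovery replicate 1 and 386 of 14890 without replicate 2. In treated kidney 1 was called, and 0 with length-scaled TPM counts, RLE factors, no filter, the compared groups alone and the replicate block, and 0 to 1 with 1 library left out (1, Ghr, without vehicle recovery). Genes called in all numbered 709, then 432, 742, 1084, 459 and 554 in that order, and 622 without vehicle recovery.

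Other genes of the pathway called in treated liver numbered 2, to be read beside the counts over all genes given above. The compared groups alone called 368 of 13860 genes. Alternatives gave 0 with length-scaled TPM counts, 8 by DESeq2, 1 by limma voom, 4 with library totals, 4 without a filter, 8 in the compared groups alone, 0 with vehicle of the same time, 9 without liver recovery replicates 2 and 3, and 0 to 1 with 1 library left out. At liver recovery 0 were called, 4 by DESeq2 and 0 to 16 with 1 library left out (16 without recovery replicate 1, which left only the libraries with kidney transcripts). Genes called in all numbered 5, 662 by DESeq2, and 2107 of 15450 without recovery replicate 1. Between treated and recovered liver 5 were called, 3 with length-scaled TPM counts, 15 by DESeq2, 2 by limma voom, 9 with library totals, 1 in the compared groups alone, 3 with the replicate block, and 0 to 21 with 1 library left out (21 without recovery replicate 1). Genes called in all numbered 334, 165, 1158, 190, 542, 33 and 222 in that order, and 2154 of 15450 without recovery replicate 1. In treated kidney 8 were called, 13 by DESeq2, 5 in the compared groups alone, and 4 (without JQ1 treatment replicate 1) to 12 (without vehicle recovery) with 1 library left out. Genes called in all numbered 709, 1042, 459, 491 and 622 in that order. At kidney recovery 0 were called, 1 by DESeq2, 1 without a filter, and 0 to 4 with 1 library left out (4 without vehicle recovery). Genes called in all numbered 1, 103, 182 and, without vehicle recovery, 240. Between treated and recovered kidney 10 were called, and 4 to 9 with 1 library left out, where 1255 and 675 to 1352 genes were called in all. For the difference between organs 0 were called, 3 by DESeq2, 1 with library totals, 1 without a filter and 0 to 1 with 1 library left out. Genes called in all numbered 30, 109, 42, 36 and 12 to 33 in that order.

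Replicate numbers are shared by the groups, and deviations of same-numbered libraries correlated at -0.06 to 0.00 in liver and -0.13 to 0.10 in kidney. No likeness of same-numbered libraries was seen, but whether they share a batch was not tested. With 3 or 4 libraries a group and 1 vehicle library of the recovery age, small differences and differences of age were not detectable or could not be told apart.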
